A study of Brugia malayi with 68 samples.

Results

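Microfilariae of the filarial nematode Brugia malayi, collected 1 day after their gerbil hosts received an anthelmintic drug or no drug, were compared between rounds of the experiment. The 12 libraries were all day 1 microfilaria libraries among the 68 of the series. The 4 libraries of replicate 3, one per treatment, were set against the 8 libraries of replicates 1 and 2, with treatment held as a block. Replicate 3 was singled out with earlier results of these counts in view, so the difference itself is given as a description, without a p-value, and it supports nothing further. Tests are given only for measures that did not enter that choice.

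The series covers adult females, adult males and microfilariae from Mongolian gerbils (Meriones unguiculatus) infected in the peritoneal cavity with infective larvae. Hosts were given ivermectin (0.2 mg/kg), diethylcarbamazine (6 mg/kg), albendazole (1 mg/kg) or no drug, and worms were recovered 1 or 7 days later. Per the series' design text, each replicate was a round in which all of these treatments were carried out. How many animals gave the larvae of 1 library is not given in the sources used here. The labels name the control groups after the solvent DMSO while the protocol describes untreated animals, and they are called untreated here. Each day 1 microfilaria group holds 3 libraries, while the 4 day 7 microfilaria groups hold replicates 1 and 2 only.

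Microfilariae are the sheathed larvae that adult females release live. They have no mature gonads, circulate in the blood of a natural host without growing, and wait for uptake by a mosquito. After infection of the peritoneal cavity of gerbils they collect there beside the adults, from which they are separated after harvest. Adult male RNA is rich in transcripts of spermatogenesis, and adult female RNA holds transcripts of the ovary, of the uterus and of the embryos inside it. Of the drugs, diethylcarbamazine clears microfilariae from blood by routes that are not settled, ivermectin acts on chloride channels gated by glutamate, and albendazole binds beta-tubulin.

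The values are read counts per gene as the authors deposited them, given here as CPM, that is, counts scaled to a common library total. Gene identifiers in the file are not paired with names there or in the reference table, so genes are grouped by the stage in which they were abundant, and at most 2 identifiers per direction are given in a comparison. Total counts ran from 7639670 to 13746925 in the 4 replicate 3 libraries and from 8990588 to 24449425 in the 8 others. Replicate 3 libraries had a count for 10472 to 10819 of the 11590 genes, fewer than every one of the others, which had 10915 to 11115. On the principal components of the 12 libraries, the first axis carried 52.5% of the variance, and the replicate 3 libraries lay together at scores of 27.6 to 38.6 on it. The others were spread from -60.4 for ivermectin replicate 1 to 24.6 for untreated replicate 1, so that the latter lay next to replicate 3.

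The stage label was checked with genes called in untreated day 7 worms, from libraries that do not enter the day 1 contrast. Of 10508 genes tested, 6221 (59.2%) differed between microfilariae and females, 7803 (74.3%) between microfilariae and males, and 7456 (71%) between females and males (edgeR quasi-likelihood test, Benjamini-Hochberg adjusted p under 0.05). A called gene at least 4-fold above both other stages was placed in the class of its stage. This gave 261 microfilaria-high, 467 female-high and 1184 male-high genes. By the same limit, 522 genes were microfilaria-low, that is, below both adults, while 295 were male-low and 69 female-low. A further 2245 genes, called flat here, lay within 1.5-fold in every pair of stages. In all, 57 microfilaria-high, 159 female-high, 711 male-high and 231 microfilaria-low genes passed a 16-fold limit and served as markers.

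The 57 marker genes of microfilariae summed to 19430 to 26690 CPM in replicate 3 and to 16080 to 34880 CPM in replicates 1 and 2. The same genes summed to a mean of 211.1 CPM in untreated day 7 females and 174.6 CPM in males. All 12 libraries therefore carried larval transcripts far above the level of adults, and the range of replicate 3 lay inside that of the other rounds.

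Among the 10141 genes that passed a filter on low counts, 654 (6.45%) were called between replicate 3 and replicates 1 and 2. Of these, 301 (2.97%) were higher in replicate 3 and 353 (3.48%) were lower. The count rested on single libraries. It was 299 without untreated replicate 2, 132 without diethylcarbamazine replicate 1, 432 without diethylcarbamazine replicate 2, 183 without ivermectin replicate 1 and 406 without ivermectin replicate 2. It was 1 without albendazole replicate 3, 3 without diethylcarbamazine replicate 3 and 1 without ivermectin replicate 3. The account below therefore rests on levels, fold changes and signs. At the threshold itself, the last gene inside lay at -2.04 on the log2 scale (SE 0.566), and the first outside lay at -0.53 (SE 0.148).

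The genes at either end differed in kind. The 301 higher genes were abundant and shifted little, with a median level of 6.09 log2 CPM and a median log2 fold change of 0.54. Of them, 20 were at least 2-fold higher and 1 was at least 4-fold higher. The 353 lower genes were scarce and shifted far, with a median level of 0.22 log2 CPM and a median log2 fold change of -2.17. Of these, 262 were at least 2-fold lower, 198 at least 4-fold and 61 at least 16-fold, and 158 had a mean below 1 CPM. For all genes tested the median level was 5.26 log2 CPM and the median absolute log2 fold change was 0.19. Genes whose 4 replicate 3 libraries all lay outside the range of the other 8 numbered 422 above (4.16%) and 277 below (2.73%). Called genes without overlap numbered 224 above (2.21%) and 142 below (1.4%). In RNA from whole larval preparations, fewer cells or worms of a kind and less RNA per cell cannot be told apart.

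**Figure D1:**
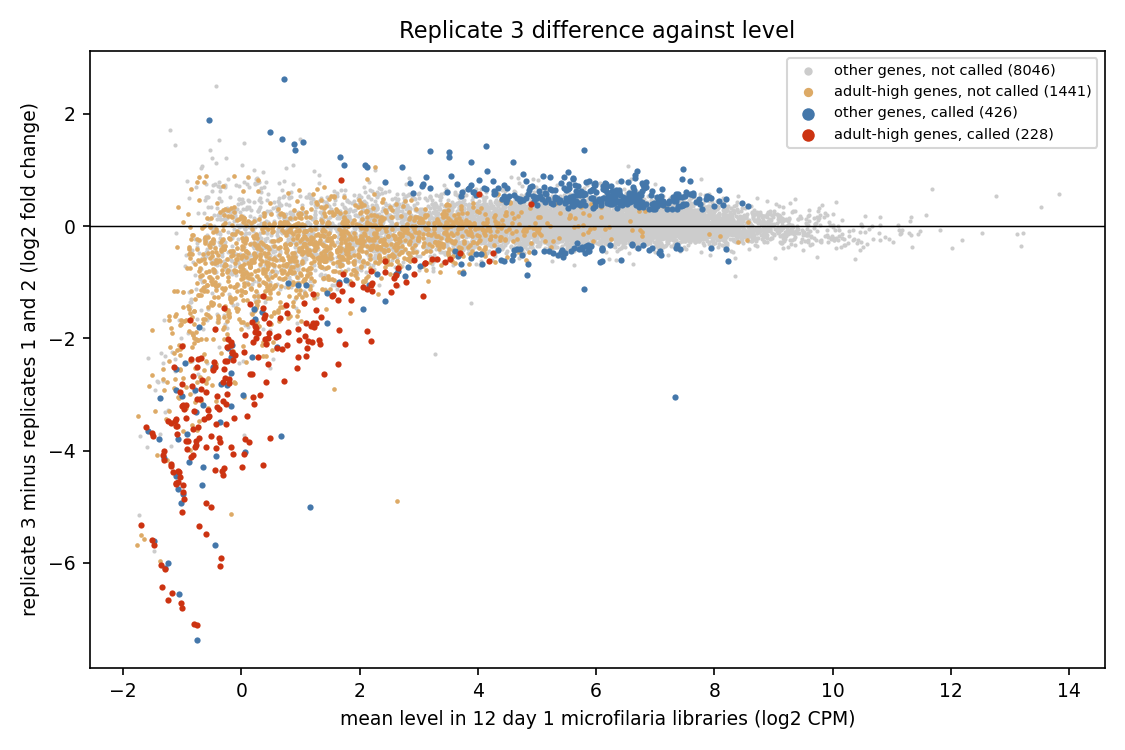
Each point is 1 of the 10141 genes tested, with its mean level in the 12 day 1 microfilaria libraries in log2 CPM on the horizontal axis and its log2 fold change between replicate 3 and replicates 1 and 2 on the vertical axis, coloured by call and by membership of the classes higher in adults. Genes called higher sit mostly at middling to high levels, with a median log2 fold change of 0.54, while genes called lower, most of them adult-high, reach far down at the scarce end, with a median of -2.17.

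The difference had the same direction under every treatment and was smallest without drug. Among the higher genes, the median difference of replicate 3 from the mean of replicates 1 and 2 was 0.39 log2 units in untreated larvae, 0.71 with albendazole, 0.45 with diethylcarbamazine and 0.66 with ivermectin. Of the 301 genes, 300 were higher in all 4 treatments. Among the lower genes the median was -0.53 in untreated larvae, -1.76 with albendazole, -1.77 with diethylcarbamazine and -2.43 with ivermectin. Of the 353 genes, 338 were lower in all 4 treatments. These counts follow from how the genes were chosen and are given as a description.

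Whether the difference depended on treatment was tested as an interaction. In edgeR 0 of 10385 genes (0%) passed for the 3 drugs jointly, with 111 at an unadjusted p under 0.05. For single drugs 0 genes passed, with 141 at an unadjusted p under 0.05 for albendazole, 147 for diethylcarbamazine and 269 for ivermectin. DESeq2 called 2 genes jointly and 0 for any drug alone. The spread in this model includes the differences between replicates 1 and 2, and its common coefficient of variation was 0.208. With a replicate block, a term for replicate 2 against replicate 1 added after the data were seen, it was 0.136. EdgeR then called 1 gene jointly, with 371 at an unadjusted p under 0.05, and 0 for any drug alone, with 380 for albendazole, 324 for diethylcarbamazine and 545 for ivermectin. Each treatment has 1 replicate 3 library, and a p above the threshold does not show that the treatments were alike.

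Both genes that DESeq2 called are named after their values were seen, and their values rest on 1 replicate 3 library per treatment. WBGene00220302, which edgeR called with the replicate block as well, stood at 587 CPM in albendazole replicate 3 and at 294 and 166 CPM in the other albendazole rounds, but at 70.9 CPM in ivermectin replicate 3 against 637 and 382 CPM. WBGene00231051 stood at 105 CPM in diethylcarbamazine replicate 3 against 35.1 and 57.4 CPM, and at 47.9 CPM in ivermectin replicate 3 against 89.4 and 183 CPM. In both, replicate 3 was the highest round under 1 drug and the lowest under ivermectin and without drug. The untreated values were 73.7 CPM in replicate 3 against 176 and 134 CPM for WBGene00220302, and 60.3 CPM against 82.3 and 87.8 CPM for WBGene00231051. WBGene00220302 was also lowest in diethylcarbamazine replicate 3, at 292 CPM against 415 and 426 CPM. With albendazole WBGene00231051 lay between the other rounds, at 48.2 CPM against 39.8 and 60.8 CPM.

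The genes that the naming rule took show what the shifts looked like in single libraries. They are, per direction, the 2 with the smallest p among called genes of at least 3 log2 CPM whose replicate 3 libraries all lay beyond all 8 others, a set of 216 higher and 56 lower genes.

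WBGene00229467, a microfilaria-high gene, stood at 96.6 CPM in untreated, 118 CPM in albendazole, 98 CPM in diethylcarbamazine and 97.9 CPM in ivermectin larvae of replicate 3. In replicates 1 and 2 its lowest, median and highest values were 27.5, 41.9 and 54.2 CPM. All of replicate 3 lay above all of the other rounds, at 103 ± 10.5 CPM (SD, n = 4) against 41.6 ± 9.21 CPM (SD, n = 8), and the log2 fold change was 1.36 (SE 0.12). Day 7 larvae, none of them from replicate 3, ran from 28.6 to 61.5 CPM and so lay with replicates 1 and 2. In untreated day 7 worms the gene was higher in microfilariae than in females by 7.56 log2 units (SE 0.35, adjusted p = 7.08e-08, edgeR) and than in males by 8.78 log2 units (SE 0.39, adjusted p = 3.51e-08, edgeR).

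WBGene00224033 stood at 102, 95.7, 98.7 and 103 CPM in untreated, albendazole, diethylcarbamazine and ivermectin larvae of replicate 3. The other 8 libraries ran from 44.3 to 75.5 CPM with a median of 59.4 CPM. The sides did not overlap, with means of 99.9 ± 3.38 CPM (SD, n = 4) and 60.1 ± 9.29 CPM (SD, n = 8) and a log2 fold change of 0.77 (SE 0.1). Day 7 larvae ran from 64.8 to 94.5 CPM with a median of 71.6 CPM, below replicate 3 and partly above replicates 1 and 2. This gene was not larval in its bias. In untreated day 7 worms its microfilaria to male log2 fold change was -0.98 (SE 0.14, adjusted p = 0.000146, edgeR).

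On the lower side, WBGene00269312 stood at 31.7, 27.4, 37.6 and 34.8 CPM in the same order of treatments in replicate 3, and at 61.4 to 113 CPM in replicates 1 and 2, with a median of 66.4 CPM. Day 7 larvae ran from 38 to 79.5 CPM with a median of 60 CPM, and so reached down nearly to replicate 3. The gene's log2 fold change was -1.12 (SE 0.14), with means of 32.9 ± 4.38 CPM (SD, n = 4) and 73.9 ± 18.2 CPM (SD, n = 8). In untreated day 7 worms it was higher in microfilariae than in females by 1.31 log2 units (SE 0.28, adjusted p = 0.00255, edgeR). Over males it was higher by 0.95 log2 units (SE 0.28, adjusted p = 0.0104, edgeR). The gene was thus larval in its bias, unlike most of the lower genes. In day 1 adult females, libraries that the choice did not use, replicate 3 lay above replicates 1 and 2 by 1.97 log2 units (SE 0.4, adjusted p = 0.00375, edgeR), the opposite direction.

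WBGene00225624 stood at 44.2, 44.4, 55.6 and 54.6 CPM in replicate 3 and at 59.9 to 89.2 CPM in the other rounds, with a log2 fold change of -0.64 (SE 0.1). Day 7 larvae ran from 57.7 to 84.9 CPM. In untreated day 7 worms its microfilaria to female log2 fold change of 0.49 did not pass (SE 0.22, adjusted p = 0.0801, edgeR). Neither did its microfilaria to male one of -0.3 (SE 0.22, adjusted p = 0.24, edgeR). It too was higher in replicate 3 of day 1 females, by 1.46 log2 units (SE 0.33, adjusted p = 0.00528, edgeR). In both female comparisons 3 of the 4 replicate 3 libraries stood apart, as described further on. In those 3, WBGene00269312 stood at 69.9 to 78.7 CPM and WBGene00225624 at 121 to 131 CPM. Albendazole replicate 3 females held 21.3 and 41.2 CPM of them, and the other rounds of day 1 females 14.3 to 34.1 and 42.2 to 65 CPM. The higher level was thus seen in those 3 libraries only, and its cause was not tested.

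No named gene changed sign with 1 library left out, and the log2 fold changes ran from 1.23 to 1.51 for WBGene00229467, 0.67 to 0.84 for WBGene00224033, -1.29 to -0.99 for WBGene00269312 and -0.72 to -0.55 for WBGene00225624. WBGene00229467 was called in all 12 such fits. The calls of the other 3 genes were lost without albendazole replicate 3 (0.81, -1.06 and -0.55 in that order) and without ivermectin replicate 3 (0.67, -0.99 and -0.62), and that of WBGene00225624 also without diethylcarbamazine replicate 3 (-0.72).

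**Figure D2:**
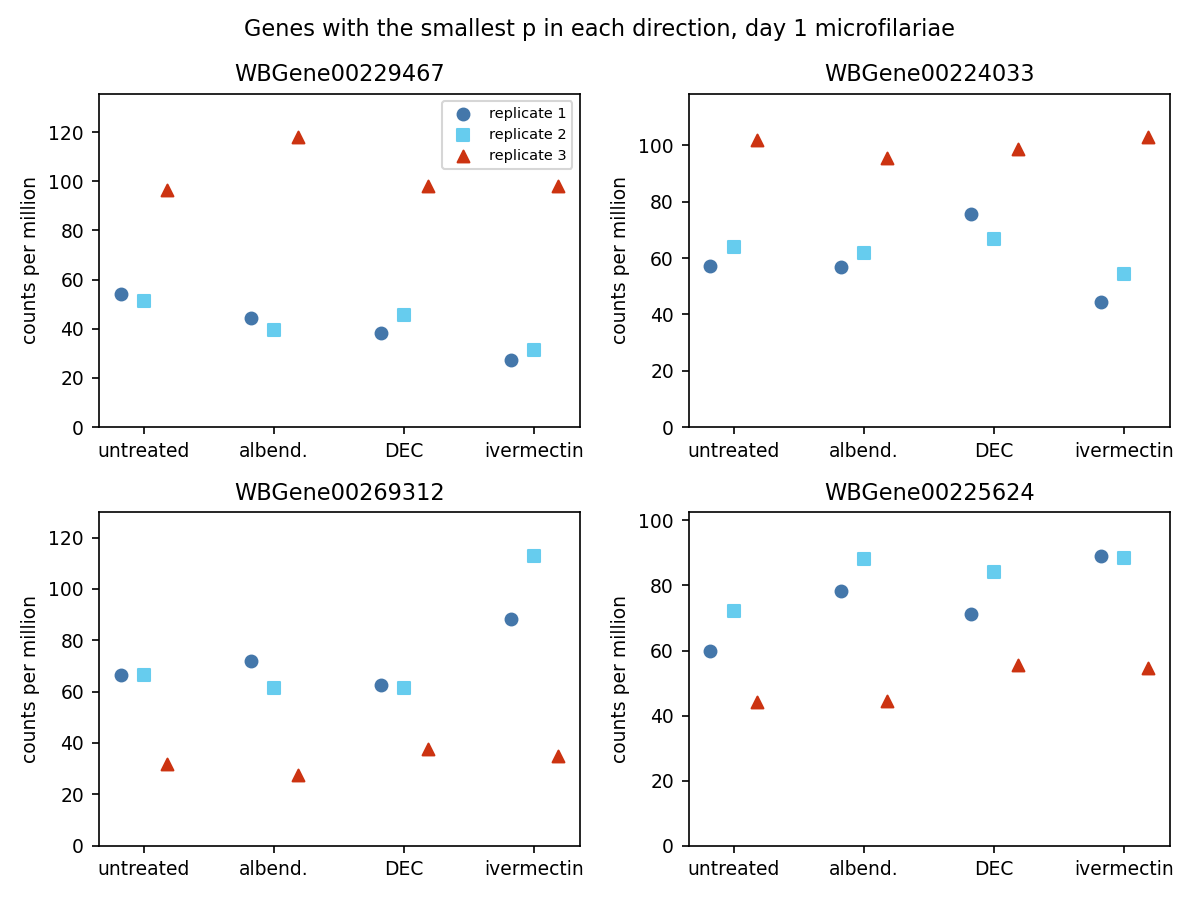
CPM of the 4 named genes, each in a panel of its own, in the 12 day 1 microfilaria libraries by treatment (albend., albendazole; DEC, diethylcarbamazine), with a symbol per replicate. For WBGene00229467 the replicate 3 points lie at 96.6 to 118 CPM above all other points, and for WBGene00269312 they lie at 27.4 to 37.6 CPM below all other points.

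The genes lower in replicate 3 were mostly genes more abundant in adult worms than in larvae. The 3 classes higher in adults (female-high, male-high and microfilaria-low) held 225 of the 353 lower genes (63.7%) and 3 of the 301 higher genes (0.997%), beside 1669 of all 10141 genes tested (16.5%). Male-high genes gave 147 of the lower genes, microfilaria-low genes 45 and female-high genes 33. Flat genes gave 75 of the higher (24.9%) and 23 of the lower genes (6.52%), beside 2243 of all genes tested (22.1%). Since a scarce gene could pass the filter through the round in which it was higher, the classes are described next over all of their members.

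When counts were pooled over the libraries of each side, 999 of all 1184 male-high genes (84.4%) had a lower CPM in replicate 3, 179 had a higher one and 6 had no count. For microfilaria-low genes the lower ones were 426 of 522 (81.6%), and for female-high genes 333 of 467 (71.3%). The same measure gave 1072 of 2245 flat genes (47.8%), 99 of 261 microfilaria-high genes (37.9%) and 6479 of all 11590 genes (55.9%). Genes of each class higher in adults thus leaned to lower levels in replicate 3, but the lean was not particular to them. A further 185 genes passed the filter here but not that of the stage contrasts, and so belong to no class. Of these, 150 (81.1%) had a negative log2 fold change, and the median was -0.76. Among them 32 (17.3%) were called lower and 1 higher, beside 3.48% lower and 2.97% higher of all genes tested. In all 4 replicate 3 libraries, 95 of 1184 male-high, 21 of 467 female-high and 10 of 522 microfilaria-low genes had no read. Of all 11590 genes, 487 had none. The share was thus raised for male-high genes, near that of all genes for female-high genes and below it for microfilaria-low genes.

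The shift was modest for most members, with a long tail. Among those that passed the filter, the median log2 fold change was -0.60 for 874 male-high genes, of which 1 in 10 had a value of -3.00 or less. It was -0.38 for 430 microfilaria-low genes and -0.32 for 365 female-high genes, beside -0.01 for all genes tested. Leaving out each library in turn moved the male-high median between -0.76 and -0.46, the microfilaria-low median between -0.52 and -0.26 and the female-high median between -0.41 and -0.18. Of the 261 microfilaria-high genes, 15 (5.75%) were called higher and 2 lower, beside 2.97% higher and 3.48% lower of all genes tested. Their median of 0.10 turned with the round, at -0.06 against replicate 1 alone and 0.30 against replicate 2 alone.

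With a filter that used other larvae, the male-high genes kept their direction. Of 567 male-high genes with at least 1 CPM in day 7 microfilariae, 80.6% were lower in replicate 3, with a median log2 fold change of -0.38, while of all 9325 genes so kept 47.6% were lower, with a median of 0.02. With at least 10 CPM, 113 male-high genes were left, with 74.3% lower and a median of -0.17, beside 42% and 0.04 for all 7154 genes. For the 69 female-high genes at that level, 39.1% were lower and the median was 0.06, against 63.4% and -0.19 for the 265 at the lower limit. The female-high shift was thus found among the scarcer genes and not among those of at least 10 CPM.

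The relation to stage bias lay at the adult end. Genes were ordered by how far microfilariae stood above the mean of both adults in untreated day 7 worms, in log2 units, and divided into 10 equal bins. In the most adult-biased bin of 996 genes, with a bias of -11.9 to -2.71, the median log2 fold change in replicate 3 was -0.73, and 196 genes (19.7%) were called lower and 0 higher. In the next bin the median was -0.12, with 4.22% called lower. The other 8 bins had medians of 0.02 to 0.06, with 2.41% to 4.62% of genes called higher and 0.502% to 1.61% lower.

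Across 9956 genes, which are not independent and come from the same libraries, Pearson's r between bias and fold change was 0.534 and Spearman's rho was 0.299. Of the higher genes, 196 of 300 (65.3%) had a bias towards larvae, beside 42 of 321 lower genes (13.1%) and 5000 of all 9956 (50.2%). The bias of the higher genes was small, with a median of 0.27 log2 units, and that of the lower genes was large, with a median of -3.68.

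**Figure D3:**
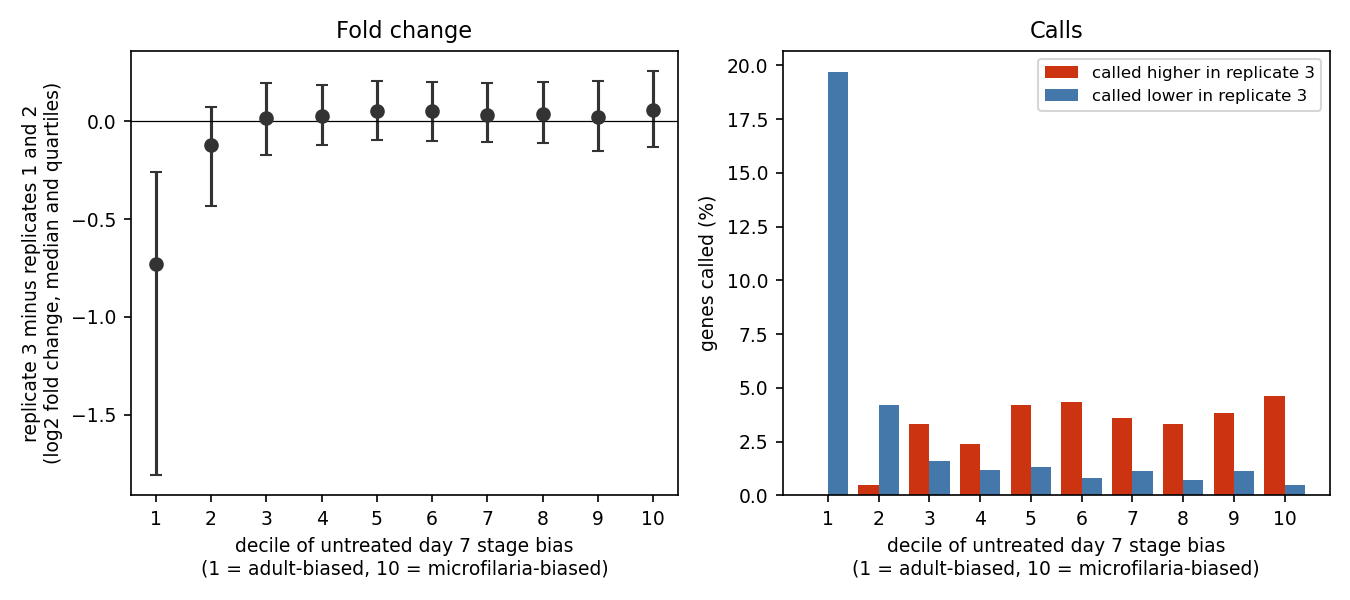
Genes are divided into 10 equal bins by their bias in untreated day 7 worms (microfilariae minus the mean of both adults, log2), from adult-biased (1) to microfilaria-biased (10). The left panel gives the median and quartiles of the log2 fold change between replicate 3 and the other rounds, and the right panel the percent of genes called. Bin 1 stands at a median of -0.73 with 19.7% called lower, and bins 3 to 10 have medians between 0.02 and 0.06.

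The summed levels show how uniform replicate 3 was. The 711 male-high markers summed to 865.6 CPM in untreated, 817.6 CPM in albendazole, 829.1 CPM in diethylcarbamazine and 862.2 CPM in ivermectin larvae of replicate 3. In replicates 1 and 2 they summed to 871.4 and 1152 CPM in untreated, 1275 and 1376 CPM in albendazole, 1320 and 1166 CPM in diethylcarbamazine, and 2119 and 1629 CPM in ivermectin larvae. For these markers replicate 3 thus lay below all 8 others within a narrow range, with untreated replicate 1 only just above it. The mean of replicates 1 and 2 was 1.17 times replicate 3 in untreated, 1.62 times in albendazole, 1.5 times in diethylcarbamazine and 2.17 times in ivermectin larvae. Over all 1184 male-high genes of the 4-fold limit the sides overlapped. Replicate 3 summed to 4623 to 4895 CPM and the other rounds to 4632 to 7290 CPM, the lowest being untreated replicate 1. At that limit the untreated ratio was 1.05 for male-high, 1.02 for female-high and 0.965 for microfilaria-low genes.

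The other adult markers were arranged alike, except in 1 library. The 231 microfilaria-low markers summed to 226.9 to 266.6 CPM in replicate 3 and to 234.4 to 833.9 CPM in the other rounds, with a median of 434.5 CPM. The 159 female-high markers summed to 189 to 206.6 CPM in replicate 3 and to 182.5 to 447.5 CPM in the other rounds, with a median of 266.2 CPM. In both classes the lowest value of the other rounds was that of untreated replicate 1, which overlapped replicate 3, and the highest was that of ivermectin replicate 1. Day 7 larvae, all of replicates 1 and 2, held 877.5 to 1424 CPM of male-high markers. The lowest of them lay only just above the highest replicate 3 library of day 1, at 865.6 CPM. Of female-high markers they held 198.8 to 319.1 CPM and of microfilaria-low markers 244.1 to 432.5 CPM, and both ranges overlapped those of replicate 3.

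Larval markers ranked the rounds in another order. The 57 microfilaria-high markers summed to 25350, 16080 and 21100 CPM in untreated larvae of replicates 1, 2 and 3, and to 34880, 17700 and 26690 CPM in albendazole larvae. They summed to 21930, 18780 and 19430 CPM in diethylcarbamazine larvae and to 30860, 16440 and 22840 CPM in ivermectin larvae. Replicate 1 was the highest, replicate 3 the middle and replicate 2 the lowest round under every treatment.

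**Figure D4:**
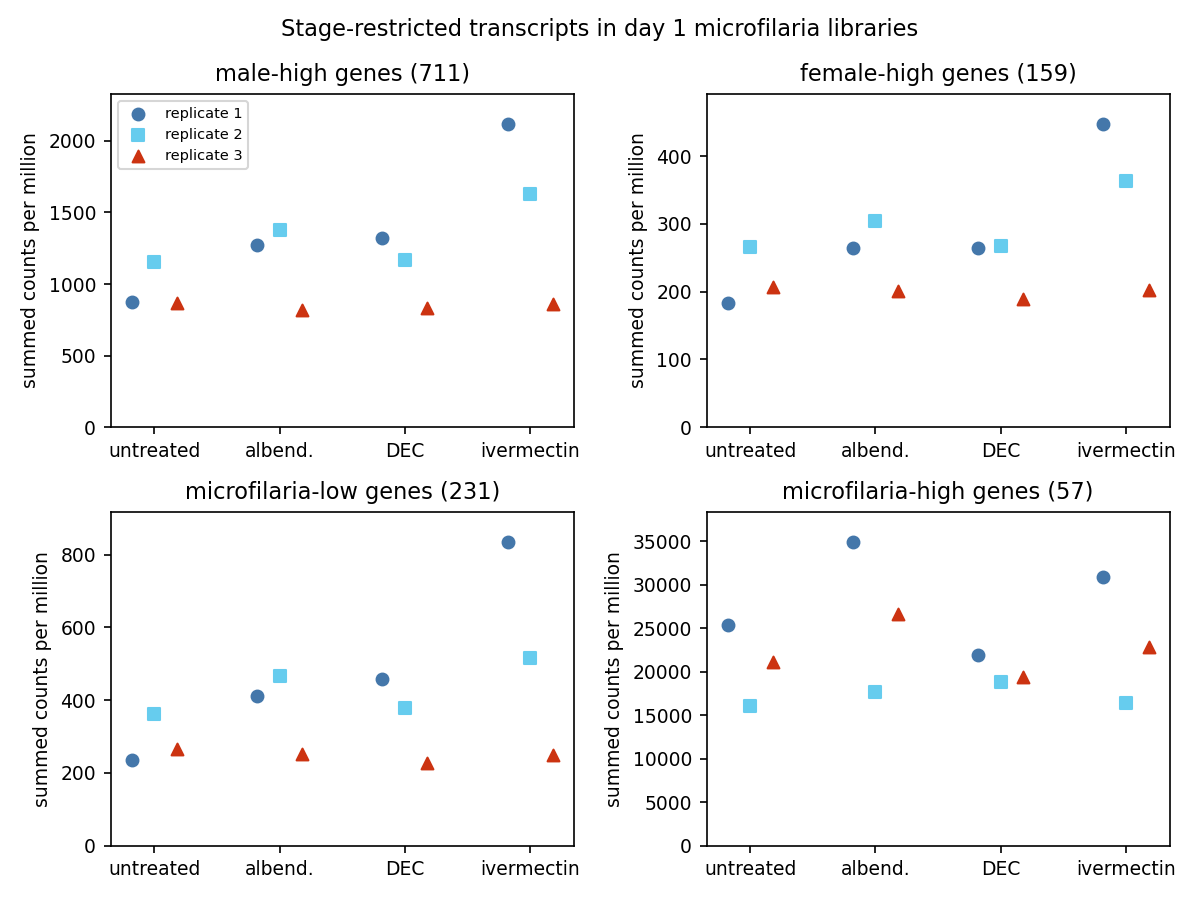
Summed CPM of the 16-fold markers of 4 stage classes in each day 1 microfilaria library, by treatment (albend., albendazole; DEC, diethylcarbamazine), with a symbol per replicate. Replicate 3 lies between 817.6 and 865.6 CPM for male-high markers and between 189 and 206.6 CPM for female-high markers, while replicates 1 and 2 reach 2119 and 447.5 CPM with ivermectin, and for microfilaria-high markers replicate 3 lies between replicates 1 and 2 under each treatment.

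The adult sums were a small part of the level in adults. Male-high markers summed to a mean of 104500 CPM in untreated day 7 males, of which the median of replicate 3 was 0.809% and that of replicates 1 and 2 was 1.24%. Female-high markers summed to 31830 CPM in females, of which the medians were 0.633% and 0.836%. The share differed with abundance. For male-high markers divided into 3 equal parts by their level in males, the medians in replicates 1 and 2 were 2.17% of the male level for the scarce part, 1.96% for the middling part and 1.02% for the abundant part. In replicate 3 they were 0.982%, 1.12% and 0.727%. Whether RNA of adult worms in the larval preparations has a part in these values was not tested.

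At equal depth the ranges of both sides overlapped. With every library thinned to 7639670 counts, 463 to 504 of the 711 male-high markers had a read in replicate 3 and 485 to 655 in replicates 1 and 2, where the lowest was again untreated replicate 1. For female-high markers the numbers were 120 to 128 in replicate 3 and 117 to 146 in the others, and for microfilaria-low markers 151 to 187 and 164 to 211. Thinning matched the total count alone. Of the 57 larval markers, 56 to 57 had a read on both sides. Between the thinned libraries 609 genes were called, and the male-high median was -0.55, an alternative chosen after the data were seen.

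Day 7 larvae were placed on a scale with 0 at the mean of replicates 1 and 2 and 1 at the mean of replicate 3 of day 1. For the 301 higher genes the 8 day 7 libraries had median places of 0.244 to 0.771, all between the rounds. For the 353 lower genes, untreated day 7 larvae stood at 0.696 and 0.623, and ivermectin replicates 1 and 2 at 0.119 and 0.779, while albendazole replicate 2 stood at -0.0273. For these genes day 7 larvae of replicates 1 and 2 therefore lay nearer to replicate 3 of day 1 without drug than with albendazole or diethylcarbamazine, whose places were at most 0.245. Untreated day 1 larvae of replicates 1 and 2 already stood at 0.762 and 0.295, since the mean at 0 includes the drug libraries. The places of the day 1 libraries are fixed by the choice of genes. Day 7 libraries did not enter that choice, but both ends of the scale come from genes chosen for a wide gap. A place between the ends can follow from that choice alone and is given as a description.

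**Figure D5:**
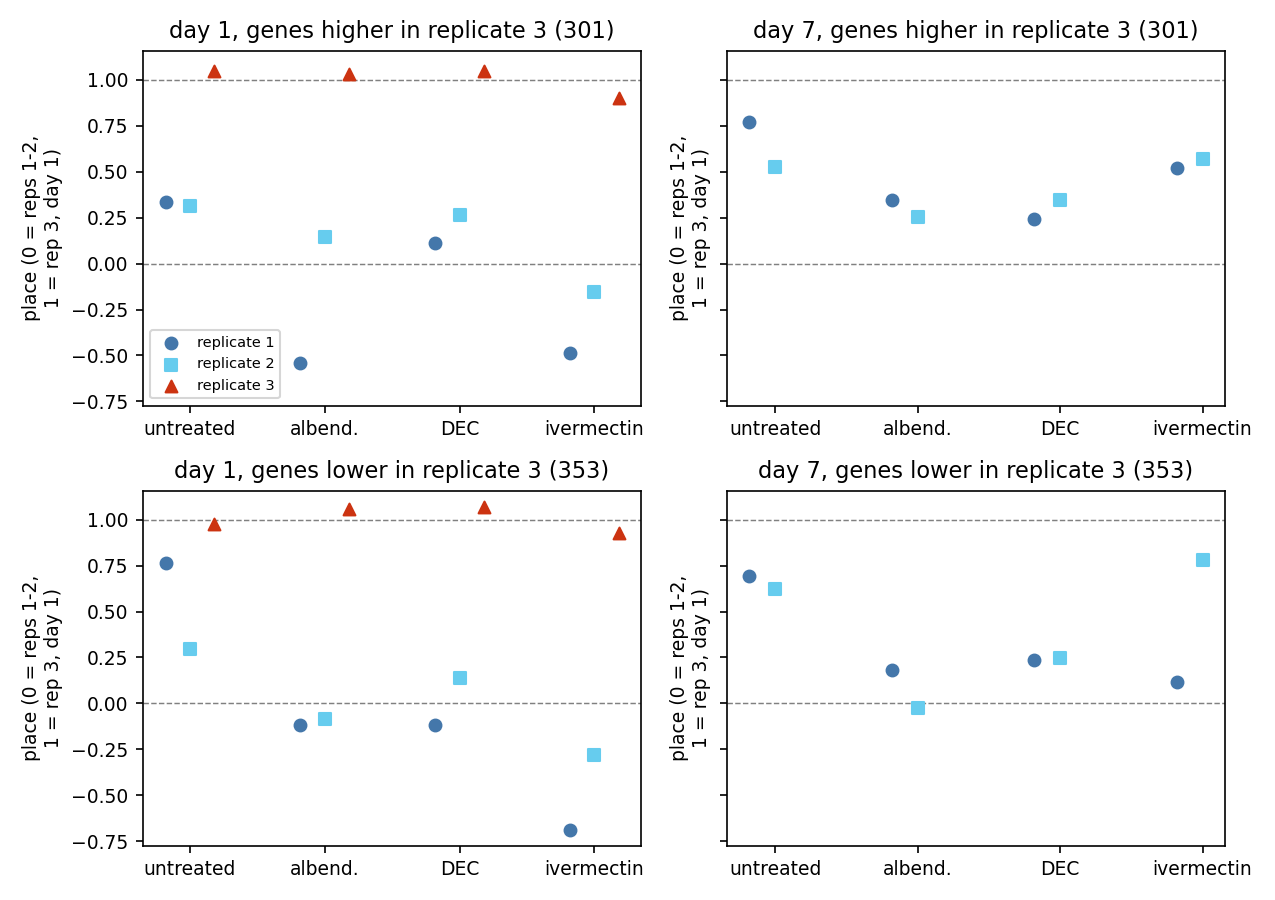
Median place of each microfilaria library between the mean of day 1 replicates 1 and 2 (0) and the mean of day 1 replicate 3 (1), for the 301 higher genes (top) and the 353 lower genes (bottom), by treatment (albend., albendazole; DEC, diethylcarbamazine) and day. Day 7 libraries lie at 0.244 to 0.771 for the higher genes and at -0.0273 to 0.779 for the lower genes.

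Replicates 1 and 2 also differed from each other. Between them, 1443 of 10134 genes (14.2%) differed in day 1 larvae, 642 higher (6.34%) and 801 lower (7.9%) in replicate 1 (edgeR quasi-likelihood test, adjusted p under 0.05). Of the 261 microfilaria-high genes, 79 (30.3%) were higher in replicate 1 and 1 was lower, with a median log2 fold change of 0.35. Of the 68 female-low genes that passed the filter, 16 (23.5%) were higher and 1 was lower. Male-high genes showed no such tilt, with 23 higher and 40 lower among 872 and a median of 0.02. The count of calls was 633 without untreated replicate 2, 501 and 436 without albendazole replicate 1 or 2, and 625 and 596 without ivermectin replicate 1 or 2. The p-values measure the spread between these samples, which are 1 library per round and treatment.

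The genes with the smallest p in that contrast differed by large factors. WBGene00268501 stood at 53.3, 63.4, 56.1 and 22.6 CPM in untreated, albendazole, diethylcarbamazine and ivermectin larvae of replicate 1 and at 3.25, 8.3, 4.37 and 1.5 CPM in those of replicate 2. It was higher in replicate 1 by 3.72 log2 units (SE 0.18, adjusted p = 4.26e-06, edgeR), and replicate 3 lay with replicate 2 at 3.27 to 8.36 CPM. WBGene00235502, a female-high gene, stood at 130, 149, 184 and 7.69 CPM in replicate 1 and at 0.973 to 3.38 CPM in replicate 2, a difference of 5.70 log2 units (SE 0.34, adjusted p = 1.76e-05, edgeR). Its replicate 3 values, 0.727 to 2.17 CPM, lay with replicate 2 as well.

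The same genes stood out in replicate 1 of day 1 adults, in separate libraries. WBGene00268501 ran from 19 to 38.3 CPM in replicate 1 females and from 0.53 to 2.08 CPM in replicate 2 females, a difference of 4.87 log2 units (SE 0.36, adjusted p = 2.21e-05, edgeR). WBGene00235502 ran from 95 to 344 CPM in replicate 1 females and from 9.06 to 10.9 CPM in replicate 2 females, a difference of 4.52 log2 units (SE 0.27, adjusted p = 5.19e-06, edgeR). Neither gene overlapped between the rounds in females. In males WBGene00235502 ran from 17.5 to 38.3 CPM in replicate 1 and from 1.39 to 3.14 CPM in replicate 2 (3.52 log2 units, SE 0.19, adjusted p = 0.0057, edgeR). For WBGene00268501 the male values of 3.54 to 6.95 CPM in replicate 1 and 0.243 to 0.594 CPM in replicate 2 did not overlap either, but the difference of 3.36 log2 units did not pass (SE 0.32, adjusted p = 0.104, edgeR).

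On day 7 neither gene stood at that level in replicate 1. In day 7 larvae of replicate 1, WBGene00268501 lay at 1.64 to 3.68 CPM and differed from replicate 2 by 0.35 log2 units (SE 0.3, adjusted p = 0.445, edgeR). WBGene00235502 lay at 0.477 to 1.73 CPM and differed by 0.13 log2 units (SE 0.44, adjusted p = 0.867, edgeR). Day 7 females of replicate 1 held 0 to 0.521 CPM of the former and 5.91 to 8.98 CPM of the latter. Among the libraries of this series, the high levels of WBGene00235502 and WBGene00268501 within each stage were those of replicate 1 on day 1, whatever the treatment.

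Of the 801 genes lower in replicate 1 on day 1, 799 were tested on day 7, and 71 were higher (8.89%) and 123 lower (15.4%) there. All genes tested on day 7 gave 8.79% higher and 7.97% lower. Positive values made up 50.1% of the 799 and 51.8% of all genes. Of the 642 genes higher on day 1, 619 were tested on day 7, with 95 higher (15.3%), 50 lower (8.08%) and 51.5% positive. Both named genes below were among the 123 lower ones. WBGene00233234 ran from 22.4 to 38.8 CPM in replicate 1, from 123 to 185 CPM in replicate 2 and from 165 to 197 CPM in replicate 3 of day 1 larvae, with a log2 fold change of -2.30 from replicate 2 to 1 (SE 0.13, adjusted p = 1.34e-05, edgeR). In day 7 larvae it was again lower in replicate 1, with a log2 fold change of -1.08 (SE 0.24, adjusted p = 0.0117, edgeR), and likewise in day 1 females, with one of -2.06 (SE 0.29, adjusted p = 0.000919, edgeR). WBGene00227285 ran from 10.8 to 13.9 CPM in replicate 1, from 33.3 to 44.5 CPM in replicate 2 and from 21.7 to 27.9 CPM in replicate 3 of day 1 larvae. It was lower in replicate 1 on day 1 (log2 fold change -1.61, SE 0.11, adjusted p = 4.39e-05, edgeR) and on day 7 (-0.90, SE 0.14, adjusted p = 0.00368, edgeR). In day 1 females its difference of 0.27 log2 units did not pass (SE 0.15, adjusted p = 0.192, edgeR).

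Over all genes, day 1 females differed between replicates 1 and 2 in 2923 of 10184 genes (28.7%), 1534 higher (15.1%) and 1389 lower (13.6%) in replicate 1. Of the genes higher in replicate 1 of larvae, 165 of 631 tested in females (26.1%) were also higher there and 78 (12.4%) were lower. Of the genes lower in replicate 1 of larvae, 257 of 799 (32.2%) were also lower in females and 37 (4.63%) were higher. The female count was 1578 and 1602 without albendazole replicate 1 or 2, and 1497 and 1453 without diethylcarbamazine replicate 1 or 2.

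In day 1 males 2 of 10403 genes (0.0192%) passed between replicates 1 and 2, both higher in replicate 1. They were WBGene00235502 and WBGene00235431, which ran from 9.97 to 16.5 CPM in replicate 1 and from 0.294 to 0.437 CPM in replicate 2 (5.27 log2 units, SE 0.25, adjusted p = 0.00472, edgeR). In edgeR 0 male calls were left without albendazole or diethylcarbamazine replicate 1 or 2, and 4 without ivermectin replicate 1 or 2, while DESeq2 called 148 genes on all 8 libraries and 1215 had an unadjusted p under 0.05 in edgeR. These adult contrasts of replicates 1 and 2 were added after the larval values were seen.

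In day 7 larvae 1626 of 9702 genes (16.8%) differed between replicates 1 and 2, 853 higher (8.79%) and 773 lower (7.97%) in replicate 1. WBGene00231685, a flat gene, was higher by 0.59 log2 units (SE 0.07, adjusted p = 0.002, edgeR) and WBGene00228089 by 1.02 (SE 0.13, adjusted p = 0.00216, edgeR). WBGene00224358 was lower, with a log2 fold change of -1.06 (SE 0.09, adjusted p = 0.000602, edgeR), as was WBGene00222601, with one of -0.67 (SE 0.07, adjusted p = 0.00134, edgeR). The larval genes had no tilt on this day, with 27 of 261 microfilaria-high genes higher and 27 lower. Of the 301 genes higher in replicate 3 of day 1, 300 were tested here, with 48 higher (16%) and 40 lower (13.3%) in replicate 1. Of the 353 lower genes, 257 were tested, with 3 higher and 12 lower. The count was 541 and 548 without untreated replicate 1 or 2, 377 and 371 without albendazole replicate 1 or 2, and 844 and 862 without ivermectin replicate 1 or 2.

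The same split of replicates was tested in adults. In day 1 males 277 of 10383 genes (2.67%) differed, 66 higher (0.636%) and 211 lower (2.03%) in replicate 3. Of the 301 genes higher in larvae, 295 were tested, 7 were higher and 2 lower, and the median log2 fold change was 0.16, beside -0.03 for all genes. Of the 353 genes lower in larvae, 322 were tested, 2 were higher and 12 lower, with a median of -0.11. WBGene00229268 (1.02, SE 0.15) and WBGene00233633 (0.96, SE 0.14) were higher in log2 units, each with an adjusted p of 0.0433 in edgeR. WBGene00221355, a male-high gene (-1.37, SE 0.2), and WBGene00227708 (-0.71, SE 0.11) were lower at the same adjusted p.

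Female transcripts stood high in some of these male libraries. Female-high markers summed to 3370 CPM in albendazole replicate 1, 2830 CPM in diethylcarbamazine replicate 1 and 4100 CPM in ivermectin replicate 2 males, and to 316 to 593 CPM in the other 9. Without these 3 libraries edgeR called 0 genes, with 2242 at an unadjusted p under 0.05, and the medians of the higher and lower larval genes were 0.20 and -0.06. In edgeR 0 calls were left as well when any 1 of 9 single libraries was left out, namely all 3 albendazole, all 3 ivermectin, untreated replicates 1 and 3 and diethylcarbamazine replicate 2. The count was 429 without diethylcarbamazine replicate 1 and 681 without diethylcarbamazine replicate 3, and DESeq2 called 1250 genes.

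In day 1 females 4644 of 10197 genes (45.5%) differed, 2537 higher (24.9%) and 2107 lower (20.7%) in replicate 3. Of the 301 larval higher genes, 298 were tested, 93 were higher (31.2%) and 63 lower (21.1%). Of the larval lower genes, 278 were tested, 28 were higher (10.1%) and 70 lower (25.2%). WBGene00228624 (1.94, SE 0.21) and WBGene00226393 (1.66, SE 0.19) were higher in log2 units, each with an adjusted p of 0.00267 in edgeR. WBGene00229026, a microfilaria-low gene (-1.17, SE 0.14), and WBGene00221090 (-1.46, SE 0.17) were lower at the same adjusted p.

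Replicate 3 of the untreated, diethylcarbamazine and ivermectin females stood apart. In them the 100 most abundant genes took 19.7% to 20.8% of counts, against 12.3% in albendazole replicate 3. Leaving them out sets 1 replicate 3 library, that of albendazole, against 8 others, and it is assumed to vary as they do. EdgeR then called 0 genes, with 319 at an unadjusted p under 0.05, which says nothing about how stable the difference is. In that fit the medians of the larval higher and lower genes were -0.17 and -0.07. The count was 2673, 2164 and 2504 without the untreated, diethylcarbamazine or ivermectin library alone.

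On day 7, replicate 3 differed from the others in 0 genes (0%) in males in edgeR, with 229 of 10266 at an unadjusted p under 0.05 and 0 in DESeq2. It differed in 0 genes (0%) in females, with 754 of 10199 at an unadjusted p under 0.05 and 10 in DESeq2. Without ivermectin replicate 3 of day 7 males, 822 genes were called, 8 higher and 814 lower. The median log2 fold change of the 301 larval higher genes was 0.02 in day 7 males and -0.05 in day 7 females. For the 353 lower genes it was -0.00298 and -0.04.

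The rounds can be set beside the drugs in the same 12 libraries. With replicate number as a block, edgeR called 0 of 10141 genes (0%) between albendazole and untreated larvae, with 1355 at an unadjusted p under 0.05 and 7 in DESeq2. For diethylcarbamazine the count was 0 (0%), with 277 at an unadjusted p under 0.05 and 0 in DESeq2. For ivermectin it was 13 (0.128%), with 1631 at an unadjusted p under 0.05 and 67 in DESeq2. The median absolute log2 fold change over all genes was 0.17 for albendazole, 0.09 for diethylcarbamazine and 0.17 for ivermectin, beside 0.19 for replicate 3 against the other rounds. The drug fits and the replicate 3 fit differ in their blocks and in the number of libraries per side, so these medians are not like for like. The ivermectin count was 0 without ivermectin replicate 1 or 2, 158 without untreated replicate 3, 115 without ivermectin replicate 3, and 2 to 6 without any 1 of 7 others, that is, all but albendazole replicate 1.

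In replicates 1 and 2 alone, ivermectin differed from untreated in 73 of 10134 genes, 64 higher and 9 lower, with 2231 at an unadjusted p under 0.05. For albendazole and diethylcarbamazine the count was 0, with 1733 and 513 at an unadjusted p under 0.05. How far these counts rest on single libraries was not tested. The male-high markers were arranged alike, since ivermectin larvae held more of them than untreated larvae in replicates 1 and 2 (2119 and 1629 CPM against 871.4 and 1152 CPM) but not in replicate 3 (862.2 CPM against 865.6 CPM). Per gene, the dependence of the ivermectin difference on the round is the interaction given above, in which 0 genes passed in edgeR with or without the replicate block, and 545 or 269 had an unadjusted p under 0.05.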

How the data were processed

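Messenger RNA of females, males and microfilariae was measured in 68 libraries. Per the labels' protocols the library kit was TruSeq and keeps the strand. The authors deposited 1 table of raw counts of reads per gene, with no normalization. TopHat2 2.0.14 and HTSeq 0.6.1p1 are named in the submitters' processing notes. The genome build, annotation and counting options are not given in the sources used here, so reads of near-identical or overlapping genes may be split or lost. The table holds 11590 genes, of which 0 were found in a RefSeq table of 11688 genes.

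The members and lists were chosen with earlier results of these data known. Library totals ran from 2112032 to 37822431 counts, and a scarce gene has a wide counting error at that depth. Counts were analysed with R 4.3.3 and edgeR 4.0.16 (TMM scaling, filterByExpr with a minimum count of 10 and total of 15, quasi-likelihood tests, Benjamini-Hochberg threshold 0.05), with limma 3.58.1 and DESeq2 1.42.0 as alternative tool, and log2 CPM used a prior count of 2. Figures were drawn with Python 3.11.15 and matplotlib 3.10.9. Each contrast was fitted on its own libraries with treatment as a block, and the stage contrasts on the 8 untreated day 7 libraries. In the other contrasts, the genes named are the 2 called genes with the smallest p per direction. The main kinds of fit were tested on simulated data with known changes. Other scalings, filters, tools, stage limits and left-out libraries were tried as alternatives. In 20 groups there are 3 libraries and in 4 there are 2. No library was left out of the main fits.

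Replicate numbers mark rounds, per the series' design text, and so pair libraries of different treatments. Day 1 larvae with the same number and another treatment had correlated deviations from their group means, from -0.0228 to 0.771 over 18 pairs. Untreated day 7 stages with the same number gave -0.0974 to 0.139 over 7 pairs.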

Additional observations from a re-analysis of the deposited data

Results flagged for a closer look

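Of 16 groups of library values examined for the named genes and the marker sums, 1 held a library far from the rest, and chance alone flags about 1 in 20 such groups. WBGene00229467 stood at 118 CPM in albendazole replicate 3, while the other 3 replicate 3 libraries lay within 96.6 to 98 CPM. The gap to the nearest of them was 0.928 of the whole range on the log2 scale. With any 1 of the 12 libraries left out, the gene's log2 fold change lay between 1.23 and 1.51.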

How the results depend on the processing

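For replicate 3 against the other rounds, 654 genes were called. The count was 1198 in DESeq2, 1872 with replicate number as 3 levels (1048 higher, 824 lower), 1784 against replicate 1 alone, 1787 against replicate 2 alone, 626 without the untreated libraries (180 higher, 446 lower; chosen after seeing the data), and 1 to 905 with 1 library left out. With 1 library left out, the replicate 1 to 2 counts were 436 to 1523 in day 1 larvae, 371 to 2375 in day 7 larvae, 1453 to 2996 in day 1 females and 0 to 4 in day 1 males, where DESeq2 gave 148. The interaction gave 0 genes for the drugs jointly and for each drug when 1 library of replicate 1 or 2 was left out, 2 jointly in DESeq2, and with a replicate block 1 jointly and 0 for each drug. It could not be fitted without a replicate 3 library. Replicate 3 against the others gave 0 to 681 in day 1 males (1250 in DESeq2, 0 without the 3 libraries high in female transcripts), 2164 to 5992 in day 1 females (0 without the 3 that stood apart, which leaves 1 replicate 3 library and says nothing about stability), 0 to 822 in day 7 males and 0 to 0 in day 7 females (10 in DESeq2). Drug counts were 0 to 3 for albendazole (7 in DESeq2), 0 to 1 for diethylcarbamazine and 0 to 158 for ivermectin (67 in DESeq2 and 0 with no replicate block). With a replicate block the stage contrasts gave 5745, 7510 and 7353 calls, and with 1 library left out 5127 to 6404, 7096 to 8004 and 6955 to 7536. With a replicate block in the stage classes, 12.4% of male-high, 7.1% of female-high and 8.91% of microfilaria-low genes were called lower and 5.95% of microfilaria-high genes higher, and no call of a class changed direction. With classes at 16-fold, 15.1% of female-high and 17.7% of microfilaria-low genes were called lower, and 8.77% of microfilaria-high genes higher. These class shares are of all members, beside 3.05% lower and 2.6% higher of all 11590 genes. Of 80 fits of the named genes, 73 kept their call and 7 lost it, and 0 changed sign. The causes were not tested. Scarce genes limit all counts of lower calls, since 158 of the 353 lie below 1 CPM on average.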

Other observations

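WBGene00235406, chosen after its values were seen, was the only gene with a mean above 7 log2 CPM and an absolute log2 fold change above 2 between replicate 3 and the other rounds of day 1 larvae, with a log2 fold change of -3.04 (SE 0.68). It ran from 245 to 1220 CPM in replicate 1, from 117 to 224 CPM in replicate 2 and from 32.6 to 55.3 CPM in replicate 3, so that each round lay apart from the next. In day 7 larvae the ranges overlapped and the direction was the reverse, with 28 to 133 CPM in replicate 1 and 59.3 to 284 CPM in replicate 2. There the log2 fold change from replicate 2 to 1 was -1.16 (SE 0.23, adjusted p = 0.00732, edgeR).

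Adult worms of the same day had the highest values in replicate 1 too. Day 1 females ran from 245 to 1590 CPM in replicate 1, from 43.7 to 192 CPM in replicate 2 and from 36.5 to 127 CPM in replicate 3, with a difference of 2.33 log2 units between replicates 1 and 2 (SE 0.21, adjusted p = 7.01e-05, edgeR). Day 1 males ran from 160 to 248, from 64.9 to 203 and from 33.4 to 63.3 CPM, and their difference of 0.69 log2 units between replicates 1 and 2 did not pass (SE 0.31, adjusted p = 0.462, edgeR). In day 7 females WBGene00235406 ran from 84.7 to 116 CPM in replicate 1, above the 38.8 to 53.7 CPM of replicate 2 and the 32.9 to 48.1 CPM of replicate 3. In day 7 males the rounds overlapped, at 90.2 to 184, 46.1 to 119 and 31.8 to 99.6 CPM in replicates 1, 2 and 3.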
